A study of Drosophila melanogaster with 19 samples.

Results

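The genes described here were 33 Drosophila melanogaster genes of DNA damage signalling, break repair, excision repair, mismatch repair and DNA topology, followed in nuclear RNA of outer photoreceptors across 7 groups of libraries. They were chosen by name from a list of repair and topoisomerase genes, not by a rule on their measured values, but with earlier results of these data known. They were 33 of the 13929 genes in the deposited count tables. Of these, 30 were matched by their current symbol and 3 by a synonym: mus308 is annotated as PolQ, mus210 as Xpc and Parp as Parp1. By role they comprised 3 genes of damage signalling, 3 genes of the end processing complex, 5 of homologous recombination, 3 of end joining, 6 of nucleotide excision repair, 4 of mismatch repair, 4 of base excision and single-strand break repair, 1 of crosslink repair and 4 topoisomerases.

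DNA repair pathways differ in the lesion they act on and in the cells that can use them. Breaks through both strands are sensed by the kinase ATM and the Mre11-Rad50-Nbs complex and are joined end to end after the Ku70-Ku80 heterodimer binds the ends, or are copied from an intact sister by homologous recombination, a route tied to cells that replicate their DNA. Bulky adducts are cut out by nucleotide excision repair, damaged bases and single-strand breaks are handled by base excision repair with Parp and XRCC1, and mispaired bases are removed by mismatch repair. Topoisomerases relax DNA or pass strands through each other during transcription and replication. Adult photoreceptors are neurons that no longer divide, and they are exposed to light.

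Nuclei were enriched from male flies of a w, ry[506] background that carried UAS-GFP-Msp300KASH in attP2 together with rh1-GAL4, and every group shared this genotype. The rh1 (Rhodopsin 1) promoter drove GFP-KASH, a green fluorescent protein anchored in the outer nuclear membrane, in the outer photoreceptors, and nuclei were captured from pools of flies with an antibody to the tag, so each library averages over a pool and over whatever other nuclei were carried along. The groups were D20, D30, D40, D50 and D60, named for the age in days after eclosion (20, 30, 40, 50 and 60 days; n = 3 libraries each), and LD, kept in a light:dark cycle, and DD, kept in constant darkness (n = 2 libraries each). The headings of the LD and DD count columns begin with D10, which would be day 10 in the form used for the other groups, but the sample titles read otherwise and no age is labelled for them, so their age is uncertain. The growth protocol attached to them describes a light:dark cycle for all samples, so the group DD rests on the sample titles.

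Depth limited what could be tested. The 12 libraries of D30 to D60 held between 629634 and 864536 counts each, the 3 of D20 between 4525799 and 5100377, and the 4 of LD and DD between 16255052 and 19704692. Levels are given as CPM, the count scaled to library size with TMM (trimmed mean of M-values) factors. The summed level of 12 outer photoreceptor markers lay between 73300 and 119000 CPM in the libraries of D20 to D60, and none of the markers was at 0. It was 145000 to 156000 CPM in DD against 81100 to 85900 CPM in LD. Inner photoreceptor markers summed to 4110 to 4470 CPM in LD and 5040 to 5970 CPM in DD, against 258 to 335 CPM at D30. Their sums in LD and DD lay above those of every library of D20 to D60. The same held for brain neuron markers, for pigment and cone cell markers and for hemocyte markers. The part of other cells in level differences between LD or DD and the other groups was not tested. LD replicate 1 stood apart: of the genes that reached 50 counts in one or other LD library, 25.3% were at 0 in it, against 2.52% to 3.87% in the other 3 libraries, each counted within its own group. D20, LD and DD came from one deposited table and D30 to D60 from the other, so any difference between D20 and D30 cannot be told apart from a difference between tables. In such samples fewer nuclei of a type and less RNA per nucleus also cannot be told apart.

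Together the 33 genes took up 0.0639% to 0.12% of the counts of a library, and most were expressed at a low level. At D30, 27 of them had a mean below 20 CPM, and 5 had a mean of at least 50 CPM. Their median was 10.0 CPM at D30, against 3.84 CPM for all genes. Per kilobase of exon, Parp, a poly(ADP-ribose) polymerase that marks broken strands, had the highest level of the 33 in all 7 groups. Its mean was 115 RPKM (CPM per kilobase of exon) at D20, 132.8 RPKM at D30, 119.5 RPKM at D60, 37.5 RPKM in LD and 34.1 RPKM in DD. Levels of the others at D30 were far lower, among them 14.9 RPKM for Top1, 14.9 RPKM for mus210 (the XPC damage sensor), 11.5 RPKM for tefu (ATM) and 7.29 RPKM for XRCC1. The order of Top1 and mus210 was not resolved, as their libraries overlapped.

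**Figure D1:**
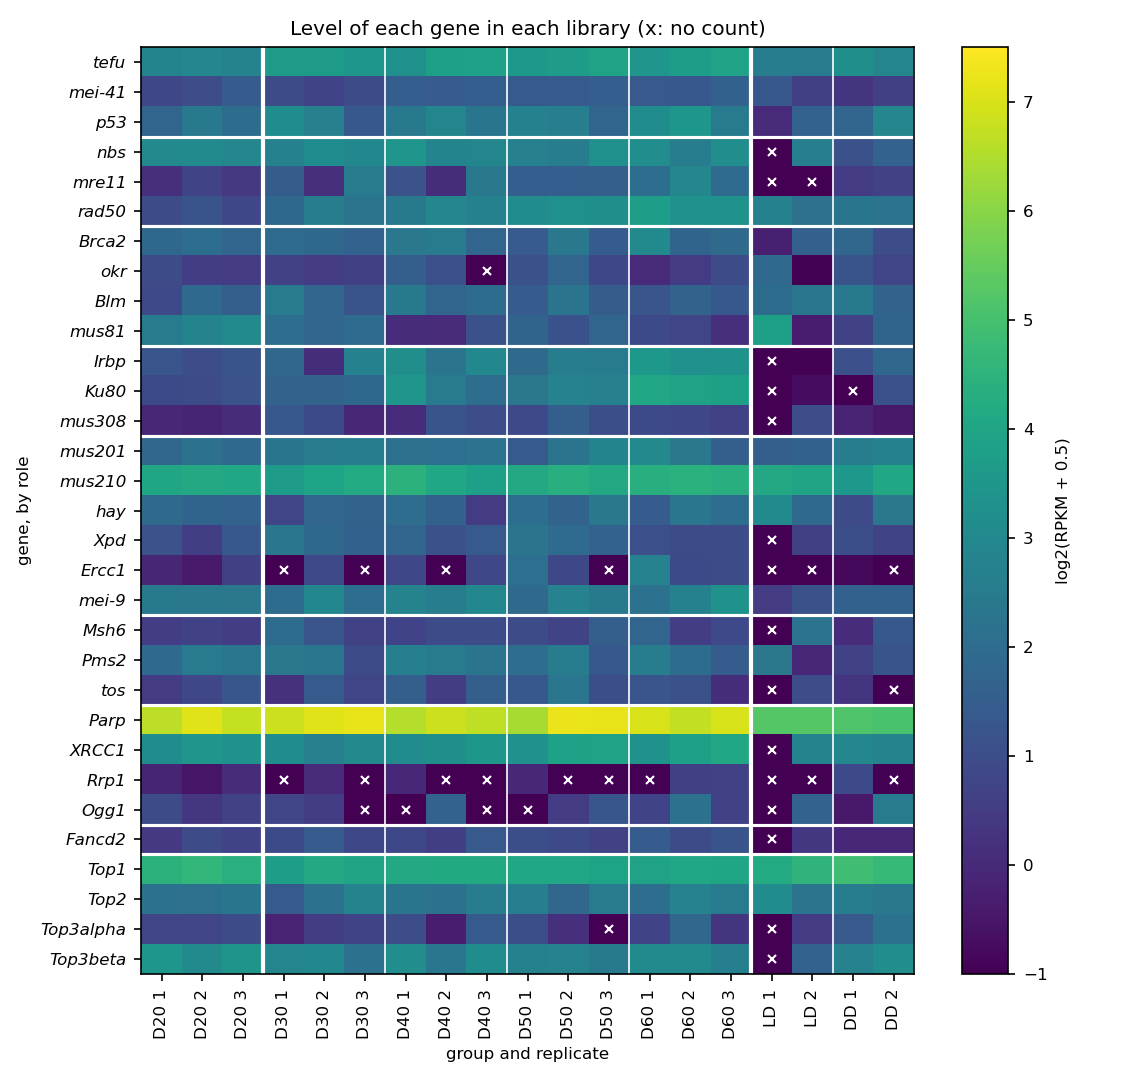
Level of 31 of the 33 genes (rows, ordered by role, white lines between roles) in each of the 19 libraries (columns, by group and replicate), as log2(RPKM + 0.5) on the colour scale. A white x marks a gene with no count in that library; Parp is the brightest row throughout, and LD replicate 1 holds 15 of the marks.

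The genes lay on chromosome arms 2L (9 genes), 2R (6), 3L (3), 3R (8) and X (7), with merged exon lengths of 950 to 8416 bases. Exons of 17 overlapped those of another annotated gene, over more than 10% of their length in 4: p53 (38.0%, with an antisense RNA gene), okr (16.7%), mus81 (15%) and mei-9 (10.6%). The strand setting of the counting is not given in the sources used here, so counts of those 4 are uncertain. No exon overlap was annotated for Ku80, Irbp, rad50, XRCC1 or tefu.

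Whether a gene could be tested depended on an expression filter applied within each comparison, which asks for about 10 counts in as many libraries as the smaller group holds. Of the 33 genes, 16 passed for D60 against D30, 15 for D50 against D30, 17 for D40 against D30, 19 for the slope on age over D30 to D60, 24 for D30 against D20 and 29 for DD against LD. 13 genes were tested in all 6 comparisons and 30 in at least 1 of them. 3 genes, Ercc1 and Rrp1 among them, passed in none. For the age comparisons at shallow depth the filter corresponded to 12.3 to 14 CPM, so a gene low at D30 could enter through D60 alone. For mei-41, Irbp and Ku80 every D60 library and no D30 library lay above it. For rad50, mei-9, XRCC1, Top2 and Top3beta every D60 library but only part of the D30 libraries lay above it. Passing the filter thus rested on D60 wholly for the first set and in part for the second. The counts below therefore describe the genes and do not stand as evidence about the whole list.

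In D60 against D30, 4 of the 16 tested genes (25.0%) passed an adjusted p of 0.05, against 23.6% of all 4068 genes tested. Ku80, Irbp and rad50 were higher at D60, against 12.9% of all genes called higher, and 1 gene was lower, against 10.7% called lower. The share of the repair genes was thus close to that of genes at large. The D60 libraries lay all above those of D30 in 6 of the 16 (37.5%), against 20.5% of all genes tested. They lay all below in 1 (6.2%), against 19.6%. The median log2 fold change of the 16 was 0.35, against -0.01 over all genes tested. Genes below the filter throughout D30 passed only through D60, and genes below it throughout D60 only through D30. This bears on the median and on the 37.5%, as mei-41, Irbp and Ku80 passed in the first way. In contrast, mus201 lay above the filter in every D30 library but not in every D60 library. With no filter the median was 0.25 over the 33 genes, against 0.01 over all 11404 genes.

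Ku80 and Irbp, which encode the fly Ku80 and Ku70 subunits of the heterodimer that loads on broken ends for end joining, were both higher at D60. Ku80 (chr2L:15768630-15771159, dm6, minus strand) had 6.37, 6.36 and 7.34 CPM in the 3 D30 libraries, 23.6, 11.6 and 8.40 CPM at D40, 10.9, 14.5 and 13.8 CPM at D50 and 37.1, 33.1 and 31.7 CPM at D60. The D60 libraries lay above all others, and every library of D40 and D50 lay above all of D30. The counts behind these levels were small, with 4, 5 and 5 counts at D30 and 25, 25 and 23 at D60. Ku80 rose by a log2 fold change of 2.33 ± 0.32 (SE; adjusted p = 0.00034, edgeR), or 5.02-fold. At D20 it lay lower still, at 3.52 ± 0.493 CPM (SD, n = 3). Its rank by RPKM among the 33 genes went from 21 at D20 and 20 at D30 to 4 at D60.

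Irbp (chr3R:11410047-11412440, plus strand) had 6.37, 1.27 and 13.2 CPM at D30 and 23.8, 19.8 and 20.7 CPM at D60. All 3 D60 libraries lay above all 3 D30 libraries, although the D30 libraries spread from 1 to 9 counts. Its log2 fold change was 1.66 ± 0.50 (SE; adjusted p = 0.0328). D40 (18.8, 9.26 and 15.6 CPM) and D50 (7.25, 12.1 and 11.3 CPM) overlapped D30. The call for Irbp was lost when any one of D30 replicate 2, D60 replicate 1, D60 replicate 2 or D60 replicate 3 was left out, with adjusted p up to 0.122 over the alternatives, and was also lost under DESeq2. The third end joining gene, mus308, which encodes the polymerase theta of the alternative, microhomology-using pathway, was too low to test: 2.94 to 12.7 CPM at D30 and 6.90 to 8.91 CPM at D60.

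rad50, the ATPase subunit of the end processing complex, was higher at D60, and its mean was higher at each later age. Its levels (chr2R:22421013-22425482, plus strand) were 12.7, 22.9 and 17.6 CPM at D30, 20.0, 28.9 and 25.2 CPM at D40, 32.6, 37.5 and 36.3 CPM at D50 and 53.5, 38.4 and 40.0 CPM at D60. D30 and D40 overlapped, while all D50 libraries lay above all of D40 and all D60 libraries above all of D50. The log2 fold change for D60 was 1.29 ± 0.29 (SE; adjusted p = 0.00795), or 2.44-fold. The other subunits gave no such call. nbs, which recruits ATM to the complex, measured 15.9 to 21.6 CPM at D30 and 14.6 to 22.3 CPM at D60, with a log2 fold change of 0.05 ± 0.31 (SE; adjusted p = 0.945). mre11, the nuclease, was below the filter, with 1.27 to 10.3 CPM at D30 and 6.90 to 14.6 CPM at D60.

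The mismatch repair genes Msh6, a subunit of a mismatch sensor, Pms2, a MutL subunit, and tos, an exonuclease, were not tested in D60 against D30. Their means at D30 and D60 were 8.79 and 7.12 CPM for Msh6, 10.9 and 11.3 CPM for Pms2, and 3.21 and 3.27 CPM for tos.

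**Figure D2:**
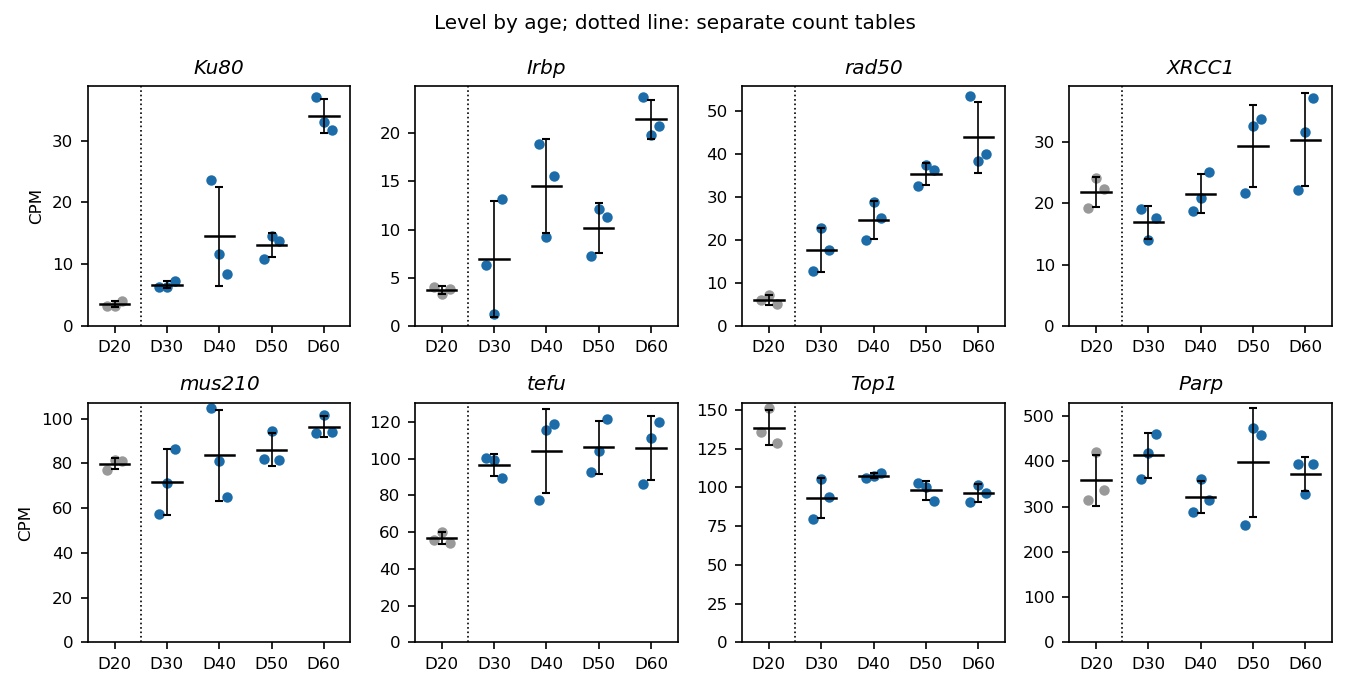
Level in CPM (vertical axis, from 0, scaled per panel) of 8 genes at D20 to D60; points are libraries (grey for D20, from the other count table; blue for D30 to D60), the bar is the mean and the whiskers are the SD of n = 3. Ku80 stands at 31.7 to 37.1 CPM at D60 against 6.36 to 7.34 CPM at D30, while the Top1 and Parp libraries of D30 and D60 overlap.

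Damage signalling genes did not pass the test. tefu, the fly ATM kinase (chr3R:15232212-15242236, minus strand), had 100, 99.2 and 89.5 CPM at D30 and 86.1, 111 and 120 CPM at D60, groups that overlapped, with a log2 fold change of 0.15 ± 0.16 (SE; adjusted p = 0.557). mei-41, the ATR kinase that responds to stalled replication, had 8.91 to 11.7 CPM at D30 and 15.9 to 20.7 CPM at D60. Those groups did not overlap, but its log2 fold change of 0.75 ± 0.34 missed the threshold (adjusted p = 0.133). p53, the transcription factor downstream of both kinases, spread from 4.40 to 17.5 CPM at D30 and from 11 to 22.5 CPM at D60.

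Genes of single-strand break repair and nucleotide excision repair also gave no call in the pairwise test. XRCC1, the scaffold of single-strand break repair (chrX:5329876-5332435, plus strand), had 19.1, 14.0 and 17.6 CPM at D30, 18.8, 20.8 and 25.2 CPM at D40, 21.7, 32.7 and 33.8 CPM at D50 and 22.3, 31.7 and 37.2 CPM at D60. The D50 and D60 libraries all lay above D30, and the log2 fold change at D60 was 0.87 ± 0.31 (SE; adjusted p = 0.0601). The call was gained without D30 replicate 1 and when every library had to hold at least 10 counts, with adjusted p down to 0.0255. Parp had 361, 419 and 459 CPM at D30 and 394, 328 and 395 CPM at D60, with a log2 fold change of -0.14 ± 0.12 (SE; adjusted p = 0.473), and it too was called without D30 replicate 1. Rrp1, an AP endonuclease, and Ogg1, which removes 8-oxoguanine, had 0 to 4 counts in every library of D30 to D60, so no change in them was detectable at this depth. Among the 6 nucleotide excision genes, mus210 had 57.3, 71.2 and 86.6 CPM at D30 and 93.6, 102 and 93.8 CPM at D60 and did not pass the test (log2 fold change 0.44 ± 0.17, adjusted p = 0.0949). The nuclease genes mus201 and mei-9 gave log2 fold changes of -0.05 ± 0.38 and 0.43 ± 0.40, and hay, Xpd and Ercc1 were not tested.

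None of the topoisomerases was called in D60 against D30, and the libraries of both ages overlapped for each. Top1, the type IB enzyme that relaxes supercoils ahead of RNA polymerase, had 79.6, 106 and 93.9 CPM at D30, 106, 108 and 109 CPM at D40, 103, 100 and 91.3 CPM at D50 and 90.6, 102 and 96.6 CPM at D60. Its log2 fold change at D60 was 0.06 ± 0.16 (SE; adjusted p = 0.84). Top2, the type II enzyme, had 11.2, 21.6 and 33.8 CPM at D30 and 19.3, 33.1 and 27.6 CPM at D60 (log2 fold change 0.27 ± 0.37). Top3beta, a type IA enzyme that acts on RNA as well as DNA, had 22.3, 24.2 and 13.2 CPM at D30 and 25.2, 25.1 and 19.3 CPM at D60 (log2 fold change 0.23 ± 0.32). Its relative Top3alpha, which works with the Blm helicase, had 1.59, 3.82 and 4.40 CPM at D30 and 4.46, 11.9 and 2.76 CPM at D60 and was not tested.

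**Figure D3:**
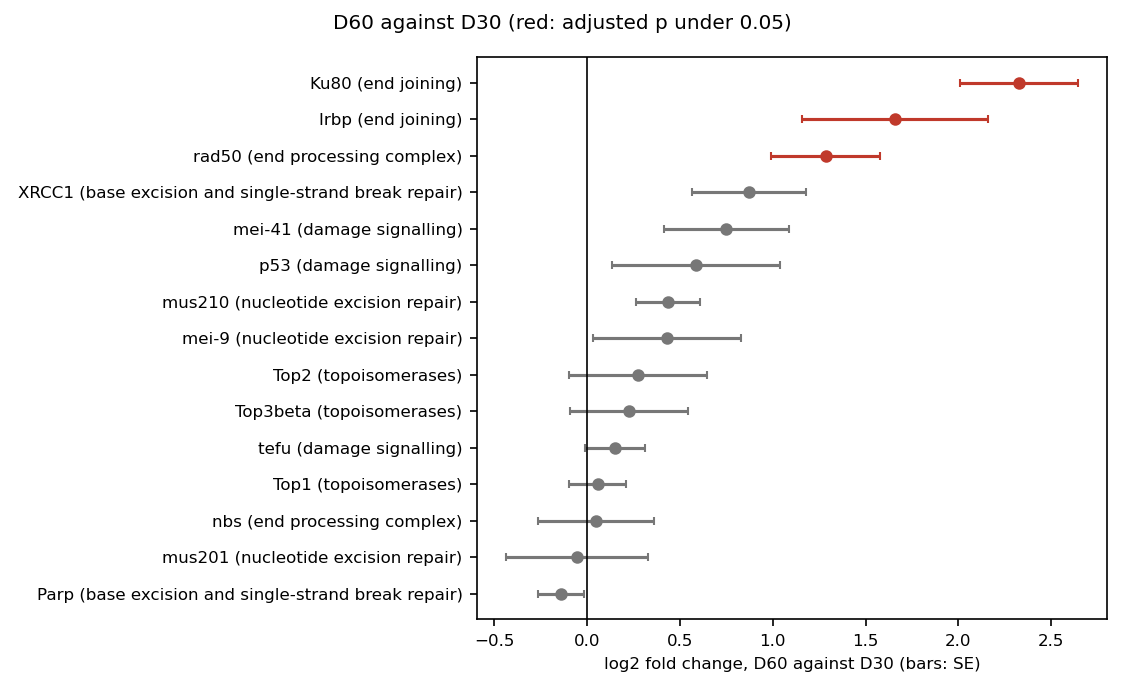
Log2 fold change of D60 against D30 (horizontal axis) for 15 of the 16 genes tested, with whiskers of 1 SE from edgeR; red marks an adjusted p under 0.05. Ku80 at 2.33, Irbp at 1.66 and rad50 at 1.29 are the red points to the right of 0.

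None of the 5 homologous recombination genes reached the filter in D60 against D30. Counts per library were low: okr (Rad54, a translocase) had 2 at D30 and 1 to 3 at D60, Brca2 6 to 8 and 7 to 17, Blm 6 to 16 and 6 to 10, and the nuclease gene mus81 5 and 1 to 2. mus81 was the one of these 4 whose libraries did not overlap, at 6.36 to 7.96 CPM at D30 and 1.38 to 2.97 CPM at D60. Among all genes tested, 19.6% had all D60 libraries below all D30 libraries. With no filter the log2 fold change of mus81 was -1.56 ± 0.76 (SE; adjusted p = 0.228). The crosslink repair gene Fancd2 had 5.87 to 10.2 CPM at D30 and 6.61 to 10.4 CPM at D60.

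Among the marker sums of other cells, those of brain neurons, pigment and cone cells, fat body and muscle overlapped between D30 and D60. Inner photoreceptor markers summed to 258 to 335 CPM at D30 and 232 to 255 CPM at D60. Hemocyte markers summed to 109 to 140 CPM at D30 and 142 to 147 CPM at D60. The summed level of 8 glia markers was 224 to 258 CPM at D30 and 508 to 567 CPM at D60, and most of that gap was Eaat1, a glutamate transporter, at 27.9 to 62.1 CPM against 315 to 353 CPM. The glial identity gene repo was at 6.37 to 8.91 CPM at D30 and 2.76 to 10.4 CPM at D60, and 1 of the 5 glia markers tested was called. Outer photoreceptor markers summed to 79200 to 84800 CPM at D30 and 85400 to 91600 CPM at D60. The part of glial RNA in the levels of Ku80, Irbp and rad50 was not tested.

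At D40 and D50 no repair gene was called against the same D30 libraries. For D50 against D30, 0 of 15 tested genes passed, against 1.36% of all 4179 genes. Of the 15, 2 (13.3%, rad50 and XRCC1) had an unadjusted p under 0.05 by edgeR, against 14.7% of all genes tested. DESeq2 also called 0. The log2 fold change was 1.00 ± 0.31 for rad50 (adjusted p = 0.161) and 0.83 ± 0.32 for XRCC1 (adjusted p = 0.258). Ku80 and Irbp were below the filter there. For D40 against D30, 0 of 17 tested genes passed, against 0.0238% of all 4209 genes. With the replicate number as a block, 0 of 17 passed, against 0.689% of all 4209 genes. At an unadjusted p under 0.05 edgeR gave 2 of them (11.8%), mei-41 and Parp, against 6.7% of all genes tested. DESeq2 again called 0. mei-41 had a log2 fold change of 0.81 ± 0.35 and Parp of -0.36 ± 0.15, both with an adjusted p of 0.733. Few genes of any kind were called at these ages.

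The slope on age used all 12 libraries of D30 to D60 and called 4 of 19 tested genes (21.1%), against 18.9% of all 4745 genes. Ku80, rad50 and XRCC1 rose with age, against 10.6% of all genes called higher, and 1 gene fell, against 8.32% called lower. Ku80 rose by 0.69 ± 0.13 on the log2 scale per 10 days (SE; adjusted p = 0.000904), rad50 by 0.43 ± 0.09 (adjusted p = 0.00138) and XRCC1 by 0.30 ± 0.09 (adjusted p = 0.0338). The slope of Irbp, 0.42 ± 0.16 per 10 days, missed the threshold (adjusted p = 0.0727). Ku80 and rad50 passed in all 20 alternatives that tested them, whereas XRCC1 passed in 12 of 21. The XRCC1 call ended without D30 replicate 2, D30 replicate 3, D60 replicate 2 or D60 replicate 3. It also ended without D30 replicate 1 and D40 replicate 1 together, under DESeq2, with exon length offsets and with no filter. Its adjusted p reached up to 0.112 over the alternatives.

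In D30 against D20, which spans the 2 tables, 4 of 24 tested genes (16.7%) passed, against 21.2% of all 6380 genes. 3 genes, tefu and rad50 among them, were higher at D30, against 11.8% of all genes called higher, and Top1 was lower, against 9.48%. tefu had 55.6, 60.3 and 54.1 CPM at D20, below all later libraries, with a log2 fold change of 0.87 ± 0.14 (SE; adjusted p = 0.00048). rad50 had 5.99, 7.28 and 5.05 CPM at D20 and a log2 fold change of 1.66 ± 0.33 (SE; adjusted p = 0.0028). It was thus the one gene called higher both in D30 against D20 and in D60 against D30, comparisons that share the D30 libraries.

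Top1 had 136, 151 and 129 CPM at D20 and fell by 0.46 ± 0.14 on the log2 scale at D30 (SE; adjusted p = 0.0346), with no overlap between the groups. That call was lost under DESeq2 (adjusted p = 0.0502) and without D30 replicate 3, D20 replicate 1, D20 replicate 2 or D20 replicate 3, with adjusted p up to 0.088. The other topoisomerases had 21.6, 20.6 and 23.1 CPM (Top2), 4.70, 4.77 and 5.77 CPM (Top3alpha) and 34.6, 25.6 and 33.4 CPM (Top3beta) at D20, with log2 fold changes at D30 of 0.15 ± 0.29, -0.49 ± 0.52 and -0.54 ± 0.26, none past the threshold. Ku80 had a log2 fold change of 1.02 ± 0.43 and did not pass (adjusted p = 0.117). Here too markers differed between the groups. Outer photoreceptor markers summed to 114000 to 119000 CPM at D20 and 79200 to 84800 CPM at D30. Muscle markers summed to under 103 CPM in every D20 library and to 103 to 313 CPM at D30. Sums of glia, brain neuron, fat body and hemocyte markers went the other way, with every D30 library below every D20 library. For glia they were 335 to 358 CPM at D20 and 224 to 258 CPM at D30. Sums of inner photoreceptor and of pigment and cone cell markers overlapped. The part of these marker differences in the results was not tested.

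In DD against LD no repair gene passed: 0 of 29 tested, against 0.025% of all 8003 genes, where 2 genes passed in all. None of the 29 had an unadjusted p under 0.05 by edgeR, against 675 of all genes, and DESeq2 called 2 of the 29 (6.9%), mre11 and Irbp, against 972 of all 8003 genes (12.1%). The biological coefficient of variation was 1.17, against 0.13 for D60 and D30. Marker sums also differed between the groups. Those of brain neurons were 645 to 943 CPM in LD and 345 to 452 CPM in DD. Sums of glia, fat body, muscle and hemocyte markers were likewise higher in both LD libraries than in both DD libraries. Outer and inner photoreceptor markers went the other way, and pigment and cone cell markers overlapped. The part of these marker differences was not tested. mre11 had 0 counts in both LD libraries and 28 and 40 in the DD libraries (log2 fold change 8.26 ± 3.80, adjusted p = 0.585, edgeR). With LD set to a floor of 3 counts over the group, the gap is at least 29.1-fold. That bound covers counting error only and not the gap between the LD libraries described below, so it does not set a minimum change. Irbp had 0 and 1 counts in LD and 55 and 119 in DD (adjusted p = 0.585). Ku80 had 0 and 6 counts in LD and 0 and 73 in DD, and rad50 478 and 390 in LD and 281 and 313 in DD.

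These values carry a gap between the LD libraries. LD replicate 1 had 16 of the 33 genes at 0, against 4 in LD replicate 2, 1 in DD replicate 1 and 4 in DD replicate 2, although its depth was of the same order. In LD, 11 genes were at 0 in replicate 1 with at least 50 counts in replicate 2, among them Msh6 (424), XRCC1 (366), nbs (363) and mus308 (240). The opposite gap occurred in 1 gene. Without LD replicate 2, edgeR called 9 of 32 genes (28.1%), among them nbs, mus81, Irbp, Msh6, XRCC1, Top3alpha and Top3beta, against 25.5% of all 8788 genes tested. Without LD replicate 1 it called 0 of 31, against 6.35% of all 9101 genes. Genes with a high count held closer levels: Top1 had 111 and 142 CPM in LD and 184 and 160 CPM in DD, Parp 116 and 117 and 110 and 102 CPM, and tefu 45.5 and 43.0 and 75.7 and 56.6 CPM. The remaining topoisomerases had 42.7 and 22.8 CPM in LD and 29.2 and 25.1 CPM in DD (Top2), 0 and 3.65 and 8.20 and 16.1 CPM (Top3alpha), and 0 and 8.81 and 20.6 and 27.8 CPM (Top3beta).

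**Figure D4:**
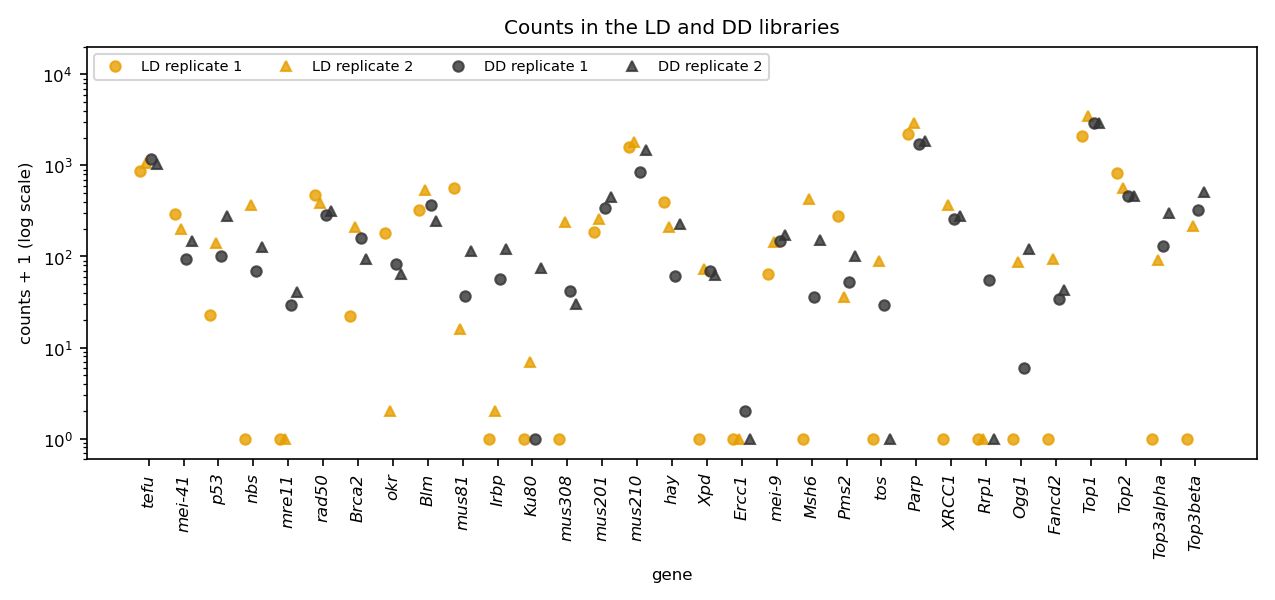
Counts + 1 (log scale) of 31 of the 33 genes (horizontal axis, by role) in the 4 LD and DD libraries; orange is LD, dark grey DD, circles replicate 1 and triangles replicate 2, and a point at 1 is a count of 0. LD replicate 1 has 15 genes at that level, the most of the 4.

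Other genes of the same pathways, were counted over whole lists. Of 62 other DNA repair genes, 56 were in the tables and 15 were tested in D60 against D30, where 5 (33.3%) were called, all higher, with a median log2 fold change of 0.24 against -0.01 over all genes. Of all genes tested, 23.6% were called and 12.9% were called higher. The 4 with the largest change were PolZ1, the catalytic subunit of the damage-bypass polymerase zeta (29.2 CPM at D30, 81.5 CPM at D60, log2 fold change 1.49 ± 0.25), RPA1, which coats single-stranded DNA (15.8 and 39.9 CPM, 1.31 ± 0.42), DNAlig3, a DNA ligase (28.3 and 69 CPM, 1.26 ± 0.29), and pic, the fly DDB1 of a ubiquitin ligase that acts on damaged DNA (23.0 and 45.4 CPM, 0.97 ± 0.29). Their adjusted p ranged from 0.00122 to 0.0418. The same list gave 0 of 15 calls in D50 and in D40 against D30, 5 of 20 for the slope (25%, all higher, against 18.9% of all genes), 3 of 30 in D30 against D20 (10%, against 21.2%) and 0 of 37 in DD against LD (against 0.025%). Of the 15, 2 passed the filter in every D60 library but not in every D30 library: RPA1, which was called, and RecQ5, which was not. This did not hold for PolZ1, DNAlig3 or pic.

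Of 23 DNA replication genes, 4 were tested in D60 against D30 and 3 were called, against 23.6% of all genes, with a median log2 fold change of 1.38 against -0.01. Of these 4, Cdc6 and Mcm3 passed the filter in every D60 library but not in every D30 library, so that count and median are set in part by the filter. Cdc6, which loads the replicative helicase, was at 13.6 CPM at D30 and 172 CPM at D60 (log2 fold change 3.64 ± 0.21, adjusted p = 8.33e-07), Mcm3, a subunit of that helicase, at 4.18 and 28.2 CPM (2.67 ± 0.46, adjusted p = 0.00157), and E2f1, an activator of replication genes, at 154.5 and 102.5 CPM (-0.57 ± 0.18, adjusted p = 0.041). Of 10 genes of the p53 damage response, 3 were tested (median log2 fold change 0.57, against -0.01 over all genes) and 1 was called, against 23.6% of all genes. It was Xrp1, a transcription factor of the stress response, at 939 and 1380 CPM (0.57 ± 0.14, adjusted p = 0.0105). At D20 Xrp1 stood at 225 CPM, and its log2 fold change at D30 was 2.17 ± 0.15 (adjusted p = 3.79e-07).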

How the data were processed

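Nuclear RNA-seq counts were analysed for 19 libraries. The authors deposited raw counts per gene, with no normalization, in 2 tables. Per the labels and the submitters' processing notes, Trimmomatic, STAR, SAMtools and DESeq2 were used with dm6 and BDGP6, with versions, strand setting and duplicate handling not given in the sources used here. Genes were matched to Ensembl release 115 by identifier. The 33 genes and the gene lists were chosen with earlier results of these data known. 2 of the 33 genes are included in the counts of genes, but their own values are not reported here.

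Differential expression was tested two-sided over all genes in edgeR (4.0.16, R 4.3.3) by its quasi-likelihood F-test, with TMM and the default expression filter (minimum count 10, minimum total 15), with Benjamini-Hochberg adjustment and a call at 0.05. The SE was taken as the absolute log2 fold change over √F. CPM used TMM factors within each table; RPKM divided it by merged exon length. Each library was a separate pool of flies. Alternatives were DESeq2 (1.42.0), other scaling and filters, length offsets, shared fits, the replicate number as a block and each library left out in turn. The procedure was tested on simulated data. Values in every library were given for the other called members and for the topoisomerases, and of each other list up to 4 called genes with the largest change in D60 against D30 were named. Numbers in the titles paired the libraries of D40 and D30, where same-numbered libraries deviated together (correlations of at least 0.126), and in no other comparison. Counting intervals and floors cover counting error only. Promoter and protein sequences were not used here.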

Additional observations from a re-analysis of the deposited data

How the results depend on the processing

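The 26 gene values with an unadjusted p under 0.05 were followed through the alternatives, and 0 of them changed sign. They were picked for lying away from 0 in these same libraries, so the lack of sign changes says little about how firm they are. The other gene values were not followed. In D60 against D30, where 4 of the genes were called, DESeq2 called 2 (rad50 and Ku80, 12.5% of those tested), against 16.7% of all genes. Requiring 10 or more counts per library called 2 (XRCC1 among them, 28.6%, against 25.5%), as this left out Ku80, Irbp and rad50. Leaving out each library gave 2 to 6 calls (11.8% to 37.5% of those tested), against 14.3% to 34.4% of all genes. Ku80 and rad50 passed in 14 of the 14 alternatives that tested them. For the slope, with 4 calls, 2 remained with no filter (6.06%, against 7.93% of all genes). With 10 or more counts required per library 1 of 7 tested genes was called (XRCC1, 14.3%, against 21.5%), as this left out Ku80 and rad50. Length offsets and the replicate block together left 2 (10.5%, against 17.2%). A test of any difference among the 4 ages left 2 (10.5%, against 11.8%). Leaving out each library gave 2 to 5 (9.52% to 26.3%, against 11.9% to 19.8% of all genes). Leaving out D30 replicate 1 and D40 replicate 1 together gave 3 (15.8%, against 19.1%). D30 against D20 gave 3 to 5 calls without each library (13.3% to 26.7%, against 11.8% to 24.6% of all genes). D50 and D40 against D30 gave 0 under every alternative run. In DD against LD, DESeq2 called 2 (and 972 of all genes), and leaving out each library gave 0 to 9 (and 44 to 2241 of all genes); the cause was not tested. With the replicate number as a block, the counts were 4 for D60 against D30, 0 for D50, 0 for D40, 4 for the slope, 4 for D30 against D20 and 0 for DD against LD. In the comparisons other than D40 against D30, same-numbered libraries did not deviate together (mean correlations of -0.0456 to 0.0176). At D30 to D60, 1 count was worth 1.16 to 1.59 CPM, so changes in genes under about 10 CPM were poorly resolved.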
